A study of Mus musculus with 12 samples.

Results

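The transcription factors that set the fate of T helper cells were followed through the m6A peaks of allergic mouse lung. The group held 9 genes, namely Gata3, Tbx21, Foxp3, Bcl6, Maf, Runx1, Runx3, Prdm1 and Irf4. A peak was counted for one of them when the authors assigned it to that gene by name, or when it had been called on that gene's identifier. By this rule 8 of the 9 genes carried a peak, out of 17415 genes with a peak in either list, and together they had 27 of the 27292 peaks of the OVA list and 27 of the 26102 peaks of the PBS list.

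The study compared m6A in lung tissue of asthmatic and control mice by MeRIP-seq, in which RNA fragments bound by an antibody to N6-methyladenosine (the IP library) are sequenced beside unselected fragments from the same sample (the input library). Female BALB/c mice aged 6 to 8 weeks were used. Mice of the OVA group received ovalbumin with alum by intraperitoneal injection on days 0 and 7 and breathed aerosolized 3% ovalbumin for 30 min a day from day 14 to day 20, and mice of the PBS group served as controls that were given PBS. From each group 3 biological replicates were sequenced, each with an IP and an input library, but only 1 peak list was made for each group. The lists therefore hold no values of single replicates, and no difference between them could be set against the spread between animals. Reads per library and per peak were not part of the lists, so the depth behind a peak is unknown and no interval is given for its values. The paper gives reads per library, differentially methylated peaks between the groups, and differentially expressed genes from the RNA-seq libraries. These were not used here.

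T helper cells take on distinct programmes under the control of lineage-defining factors. GATA3 drives the Th2 programme of interleukin-4, interleukin-5 and interleukin-13 that underlies allergic airway inflammation, T-bet (the product of Tbx21) drives the Th1 programme, FOXP3 that of regulatory T cells and BCL6 that of follicular helper cells, while c-MAF, RUNX1, RUNX3, BLIMP-1 (the product of Prdm1) and IRF4 tune several of them. The mark m6A, placed on mRNA mainly near stop codons and in 3′ UTRs, affects how long a transcript lasts and how well it is translated. In whole lung, several of these genes are also transcribed outside T cells, so a peak gives no cell of origin, and more cells of a type cannot be told apart from more RNA per cell.

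Fold enrichment relates the IP signal of a peak to its input signal, as given by the authors' caller. Member peaks had a median fold enrichment of 5.26 in OVA lung and 7.4 in PBS lung, against 5.59 and 5.44 over all peaks of each list. They ranged from 1.48 to 30.4 in OVA lung and from 2.21 to 37.7 in PBS lung. By the authors' region labels, 15 of the OVA member peaks lay in the 3′ UTR (55.6%), 6 in the 5′ UTR (22.2%) and 6 in other exons (22.2%). In the PBS list the numbers were 16 (59.3%), 7 (25.9%) and 4 (14.8%). Over all peaks the 3′ UTR held 52.7% in both lists, and the 5′ UTR held 11.6% of OVA and 11.4% of PBS peaks, and other exons held 35.7% and 35.9%. In both lists the members thus had the higher share in the 5′ UTR and the lower share in other exons, by these labels. The peaks labelled 5′ UTR included Maf peaks that cover the same bases and several Runx1 peaks, so they are not all separate sites. The label of a place can also differ between the lists, as it did on Maf.

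Most member peaks stood in both lists. With exonic blocks that had to overlap by at least 1 bp, 4 of the 27 OVA member peaks (14.8%) had no PBS counterpart, where 19.4% of all OVA peaks had none. Of the PBS member peaks 5 of 27 (18.5%) had no OVA counterpart, where 14.5% of all PBS peaks had none. All 9 of these unmatched peaks were weak, with log10 p values between -7.87 and -2.25 in OVA lung and between -4.83 and -1.84 in PBS lung. Over the whole lists, unmatched peaks had a median log10 p of -4.2 in OVA lung and -3.58 in PBS lung, against -42.2 and -33.4 for matched peaks. The unmatched member peaks were thus weak, as unmatched peaks were at the median of each list.

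The 23 OVA member peaks with a counterpart gave 23 pairs. The fold enrichment was higher in OVA lung in 10 pairs and higher in PBS lung in 13, with a median OVA over PBS ratio of 0.918, while over all 22009 pairs the median ratio was 1.09 and 59.9% were higher in OVA lung. A difference of at least 2-fold toward the OVA list was seen in 1 member pair (4.35%), a small Gata3 peak, and in 7.7% of all pairs. No member pair was at least 2-fold higher in PBS lung, where 6.57% of all pairs were. With 1.5-fold in place of 2-fold, 3 member pairs were higher in OVA lung, as were 18.3% of all pairs, and 1 in PBS lung, as were 12.3%.

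**Figure D1:**
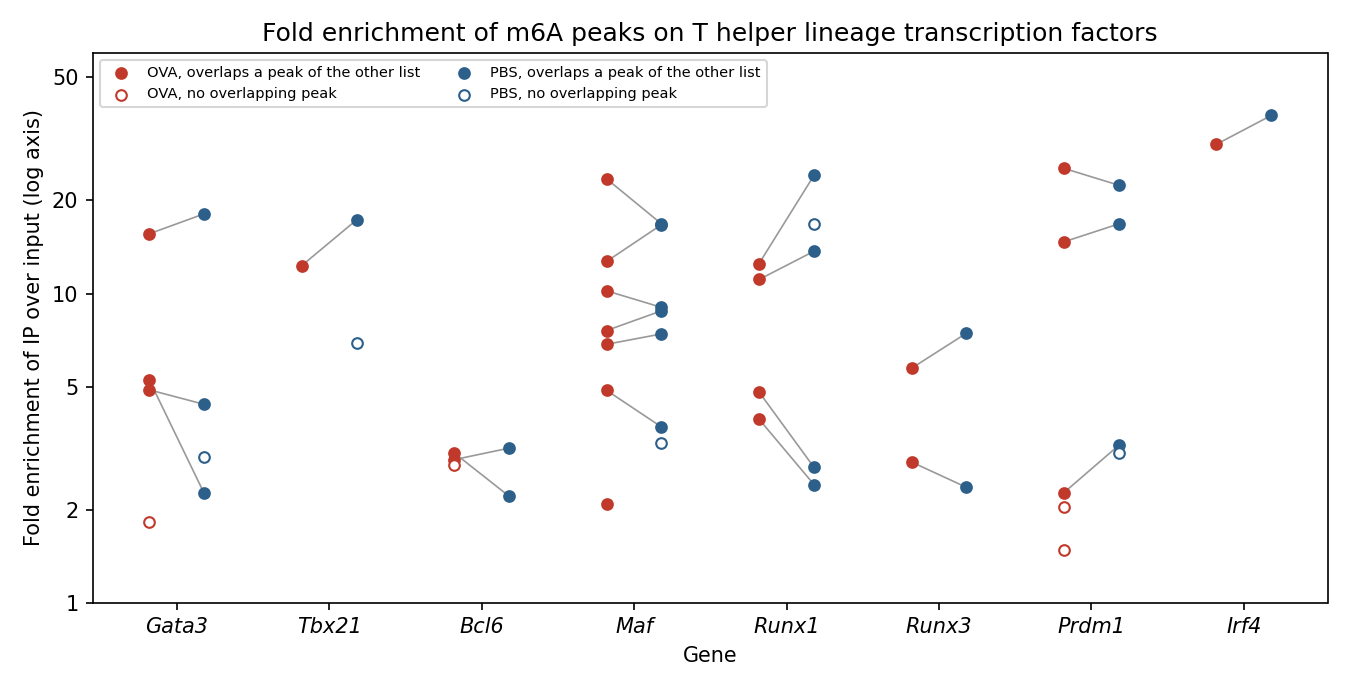
Fold enrichment of IP over input (log axis) of each peak on the 8 genes with a peak, in OVA lung (red) and PBS lung (blue). Lines join overlapping peaks, and open circles mark the 4 OVA and 5 PBS peaks without a counterpart. The OVA peak on Maf at 2.09 has no line because its counterpart was not counted for Maf, being called on and assigned to Gm15655. Irf4 had the highest value in both lists, 30.4 and 37.7.

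The p values of the same pairs leaned one way more than the ratios did. The log10 p was further below 0 in OVA lung in 19 of 23 pairs (82.6%), against 57.7% of the 21954 pairs with finite values. It was at least 2 times as far below 0 in OVA lung in 10 member pairs (43.5%), against 17.7% of all pairs, and in no member pair was it at least 2 times as far below 0 in PBS lung, against 10.6% of all pairs. The 10 pairs lay on Maf (4), Runx1 (2), Runx3 (2), Bcl6 (1) and Irf4 (1). Some Maf peaks of a list cover the same bases, and without Maf the numbers were 12 of 16 further below 0 and 6 of 16 (37.5%) at least 2 times. A peak's p value depends on how many reads the peak holds as well as on its ratio. The part of read number in this difference was not tested.

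**Figure D2:**
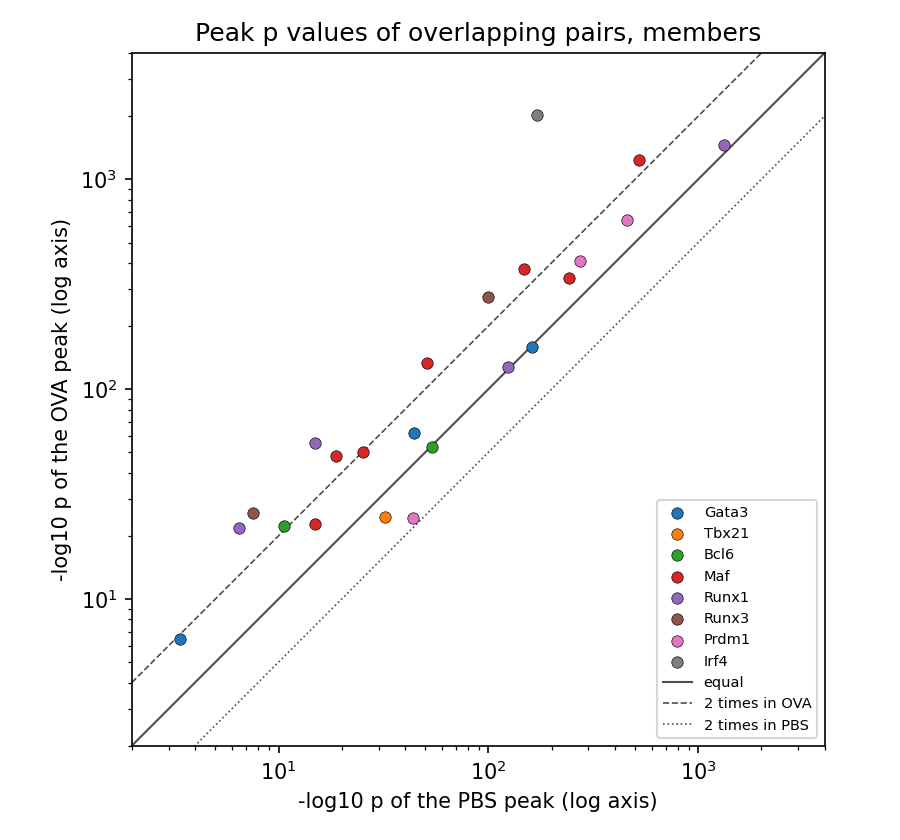
Size of the log10 p value of the 23 overlapping pairs, with the PBS peak on the x axis and the OVA peak on the y axis (both log axes) and each point 1 pair, coloured by gene. The solid line marks equal values and the broken lines a factor of 2; 10 pairs lie above the upper broken line and none below the lower one, and the point farthest from equality is Irf4 with -2020 and -171.

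Gata3, the master regulator of the Th2 fate, lies on chromosome 2 between 9857078 and 9887953 (GRCm38, RefSeq) and is read toward lower coordinates. Its strongest peak was in the 3′ UTR, at 9857795 to 9858573 with a fold enrichment of 15.6 in OVA lung and at 9857854 to 9858274 with 18.1 in PBS lung. Their log10 p values were -158 and -162. The main Gata3 peak was thus close in ratio and p value, although the OVA peak spanned 779 bp and the PBS peak 421 bp.

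A small Gata3 peak nearer the 3′ end gave the pair that passed 2-fold. It lay at 9857436 to 9857616 with a fold enrichment of 5.26 (log10 p -6.48) in OVA lung and at 9857346 to 9857467 with 2.26 (log10 p -3.4) in PBS lung. These peaks shared only 32 bp, and the pair was lost when 50% of both peaks had to overlap. A further peak, labelled exon 3 of 6, was built of 4 blocks at 9863192 to 9874574 with 4.88 in OVA lung and of 3 blocks at 9868791 to 9874455 with 4.38 in PBS lung.

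At the 5′ end of Gata3 the lists differed in position. The OVA list had a peak of 121 bp at 9877754 to 9877874 in the 5′ UTR with a fold enrichment of 1.82 (log10 p -5.72). The PBS list had none there but a peak of 3 blocks from 9877903 to 9887613 with 2.96 (log10 p -4.8). The authors' annotation labels this peak 3′ UTR although it reaches over a transcript start within the gene. Its middle block, at 9878404 to 9878600, ended within 1 bp of the RefSeq start of a Gata3 transcript. Both peaks were among the weak ones of their lists.

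Tbx21 encodes T-bet, the Th1 counterpart of GATA3, and lies on chromosome 11. It had a single 3′ UTR peak in OVA lung, at 97098310 to 97099120, with a fold enrichment of 12.3 and a log10 p of -24.5. The matching PBS peak at 97098220 to 97099150 had 17.3 and -32. Tbx21 was thus one of the genes whose shared peak had the higher fold enrichment and the lower p in PBS lung. The PBS list also had a peak of 62 bp beside it, at 97098100 to 97098161, with 6.91 and a log10 p of -2.27.

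Foxp3, the factor of regulatory T cells, lies on chromosome X between 7579676 and 7595243 and had no peak in either list. The absence of a peak does not show the absence of the transcript or of the mark, since the lists name only enriched intervals.

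Bcl6, the repressor that directs follicular helper T cells and germinal centre B cells, had peaks with low fold enrichment on chromosome 16. The peak in exon 5 of 10 lay at 23972523 to 23972943 with 2.9 in OVA lung and at 23972493 to 23972913 with 3.16 in PBS lung, and the log10 p values were -53 and -53.9. A 5′ UTR peak of 3 blocks was called on Bcl6 and assigned to the neighbouring model Gm37419. It ran from 23977583 to 23988643 with 3.05 (log10 p -22.2) in OVA lung and from 23977613 to 23988643 with 2.21 (log10 p -10.6) in PBS lung. The 5′ peak was thus among the pairs with the lower p value in OVA lung, while the exon peak was level. A 3′ UTR peak of 62 bp at 23965410 to 23965471 stood in OVA lung alone, with 2.79 and a log10 p of -2.42.

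Maf encodes c-MAF, an activator of interleukin-4 in Th2 cells that also acts in follicular and interleukin-10 producing T cells and in macrophages. It had 7 peaks in each list, on chromosome 8, the most of the 9 genes when overlapping peaks are counted separately. Counted once where peaks of a list overlap each other, these were 3 stretches in OVA lung, fewer than on Prdm1 (5), Gata3 (4) and Runx1 (4), and 5 in PBS lung, as many as on Runx1. With overlapping peaks counted separately, 12.8% of genes with a peak in OVA lung and 12.7% in PBS lung had at least 4 peaks.

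The Maf peak with the lowest p value in each list lay in the 3′ UTR by its label, at 115704164 to 115705574 in OVA lung and at 115704344 to 115705514 in PBS lung. Its fold enrichment was 12.7 and 16.7, and its log10 p was -1230 and -524. In both lists it was called on Maf but assigned to the antisense model Gm15655. The ratio was thus lower in OVA lung while the p value was lower there too. The next peak, at 115703504 to 115704045 with 7.59 and at 115703624 to 115704045 with 8.79, behaved alike, with a log10 p of -374 and -148. Further peaks at 115705753 to 115706114 in OVA lung, labelled exon 1, and at 115705723 to 115706174 in PBS lung, labelled 3′ UTR, had 4.86 and 3.7.

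In the 5′ UTR of Maf both lists had 2 overlapping peaks. The longer one, at 115706533 to 115707794 in OVA lung and 115706563 to 115707794 in PBS lung, had a fold enrichment of 10.2 and 9.02 and a log10 p of -133 and -51.2. The shorter one, at 115706528 to 115707096 and 115706618 to 115707096, had 6.85 and 7.4. All of these 5′ peaks ran past the RefSeq end of Maf at 115706894. The PBS list alone had a peak of 62 bp at 115701524 to 115701585 with 3.29, whose log10 p of -1.84 was the weakest of all member peaks.

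Gm15655 overlaps Maf, and 2 of the 7 peaks in each list were assigned to it, the 3′ UTR peak of lowest p and a further one. This further one was the Maf peak of highest fold enrichment in both lists and has 3 blocks. It ran from 115683955 to 115706111 with 23.5 in OVA lung and from 115683896 to 115706171 with 16.8 in PBS lung. Its blocks of 807 and 62 bp in OVA lung, and of 866 and 62 bp in PBS lung, lie outside the RefSeq extent of Maf. Conversely, a peak of the OVA list called on Gm15655 at 115705077 to 115707233, with 2.09, was assigned to Maf. Its PBS counterpart at 115705077 to 115705429, with 2.36, was called on and assigned to Gm15655 and so was not counted for Maf. The lists give no strand for a peak, so signal from Maf and from Gm15655 cannot be told apart here.

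**Figure D3:**
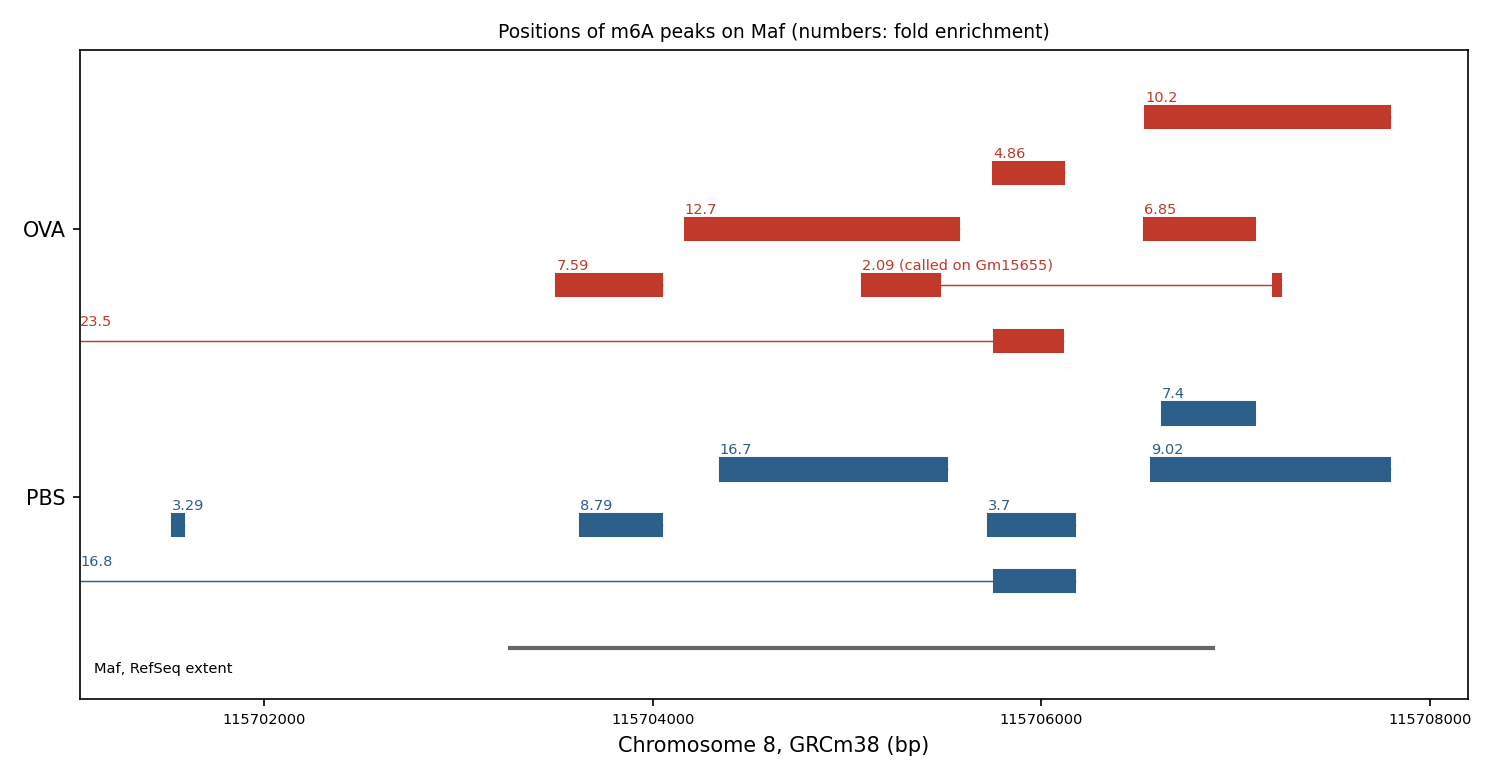
Maf peaks to scale along chromosome 8 (GRCm38, bp), with exonic blocks as bars, introns as thin lines and the fold enrichment above each peak, for the OVA list (red) and the PBS list (blue). The grey line is the RefSeq extent of Maf, and the peaks at 23.5 and 16.8 run on to the left beyond the area drawn; several peaks of 1 list cover the same bases.

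RUNX1 and RUNX3 bind DNA with the shared partner CBFβ. RUNX1 acts from thymic development onward and in regulatory T cells, and RUNX3 works with T-bet in Th1 and CD8 T cells. Runx1 lies on chromosome 16 between 92601466 and 92826074 and is read toward lower coordinates from a distal and a proximal start. Its 992 bp peak at 92695816 to 92696807, labelled 5′ UTR, had the same start and end in both lists. The fold enrichment there was 11.1 in OVA lung and 13.7 in PBS lung, and the log10 p was -1450 and -1330. By p value it stood at percentile 98.4 of the OVA list and 98.1 of the PBS list. By fold enrichment it stood lower, at percentile 73.9 and 83.5.

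In the 3′ UTR of Runx1, the peak at 92605393 to 92605844 again had identical ends in both lists. Its fold enrichment was 12.5 in OVA lung and 24.1 in PBS lung, a ratio of 0.519, with log10 p values of -127 and -124. Of all 23 member pairs this was the one with the lowest OVA over PBS ratio, and it fell just short of 2-fold. A smaller 3′ peak went the other way, with 3.92 at 92601855 to 92602126 in OVA lung and 2.41 at 92601945 to 92602096 in PBS lung, and log10 p values of -21.7 and -6.45. Both 3′ peaks were called on Runx1 and assigned to the lincRNA Gm49722.

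At the proximal start of Runx1, peaks of 2 blocks ran from 92697045 to 92815445 with a fold enrichment of 4.8 in OVA lung and from 92697105 to 92815445 with 2.74 in PBS lung. The log10 p was -55.4 and -15. This 5′ peak and the small 3′ peak were the Runx1 peaks with the higher fold enrichment in OVA lung, by 1.75 and 1.63 times, while the strong peaks had the higher ratio in PBS lung. In both lists the larger block ended within 1 bp of the proximal start and so covered nearly all of the 50 transcribed bases of its promoter window; block ends in these lists may be off by 1 bp. Of the 32851 RefSeq promoter windows (250 bases before to 50 after a start, GRCm38.p6), 5.86% overlapped a block of an OVA peak and 5.45% a block of a PBS peak. Among them were 12 windows for 8 of the 9 genes. There was none for Maf, so overlap of its 5′ peaks with a promoter window was not examined. Of these 12, beside the proximal Runx1 window, only the Gata3 window at 9878551 to 9878850 overlapped a member peak, the weak PBS peak.

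**Figure D4:**
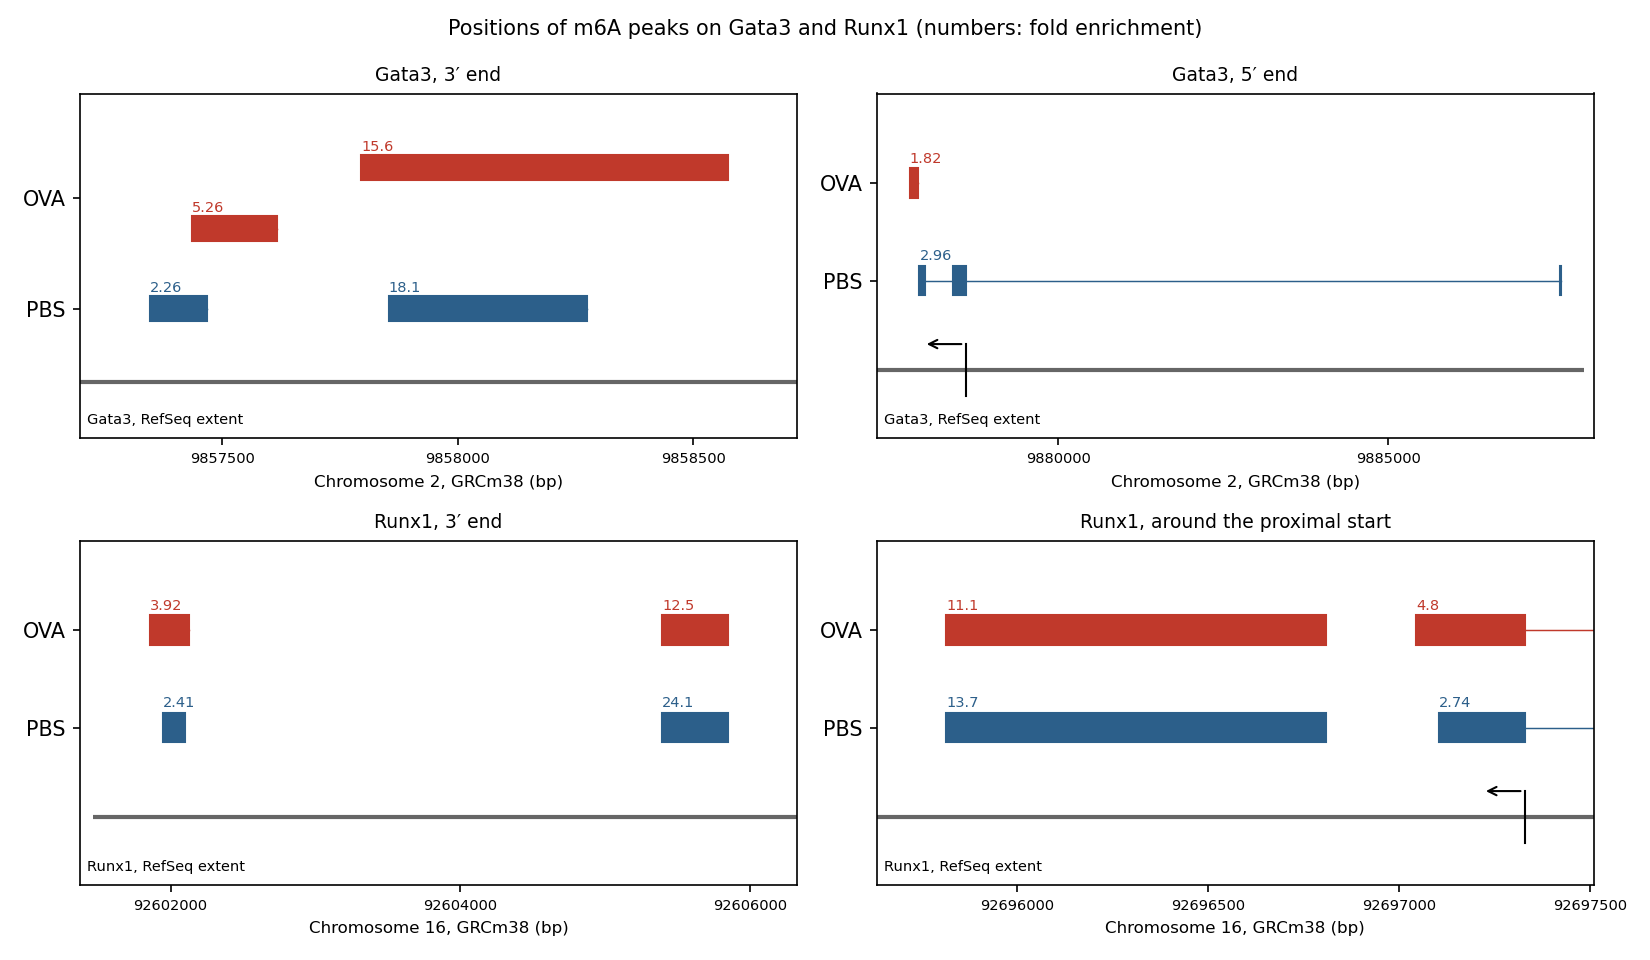
Peaks on Gata3 and Runx1 to scale along chromosomes 2 and 16 (GRCm38, bp), with exonic blocks as bars and fold enrichment above each peak, for the OVA list (red) and the PBS list (blue). Black arrows mark RefSeq transcript starts and their direction. The 2 larger Runx1 peaks have the same ends in both lists, and of the Runx1 pairs the 3′ peak at 12.5 and 24.1 differs most.

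The PBS list alone had a Runx1 peak of 2 blocks just inside the distal start, at 92825663 to 92825969, with a fold enrichment of 16.8 but a log10 p of only -4.83. Stretches of 30 bases from the distal promoter windows of Runx1 and Runx3 are shown since they hold a run of 18 bases common to both genes, with 2 copies of ACCACA, the reverse complement of the core TGTGGT that RUNX proteins bind. The stretches are given 5′ to 3′ on the strand of the gene, with ACCACA in capitals. They lie at chr16:92826025-92826054 (minus strand), within the first transcribed bases of Runx1, and at chr4:135120503-135120532 (plus strand), before the start of Runx3.
Runx1: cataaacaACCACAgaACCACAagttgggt
Runx3: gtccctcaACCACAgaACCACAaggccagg
The letters ACCACA or TGTGGT were found in 16.8% of all promoter windows, and at least 2 copies on the same strand in 1.09%. Among the 12 windows of the members these were the 2 with at least 2 copies. No member peak overlapped either stretch.

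Runx3, on chromosome 4, had its peaks in the 3′ UTR only. The larger one lay at 135175713 to 135176223 with a fold enrichment of 5.73 in OVA lung and at 135175743 to 135176193 with 7.44 in PBS lung, and the log10 p was -275 and -100. The smaller one lay at 135177210 to 135177511 with 2.85 and at 135177270 to 135177451 with 2.36, with log10 p values of -25.7 and -7.54. Both Runx3 pairs were more than 2 times as far below 0 in OVA lung, whichever list had the higher ratio.

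Prdm1 encodes BLIMP-1, a transcriptional repressor that acts in effector and regulatory T cells and also sets the plasma cell fate. On chromosome 10 its strongest peak lay in the 3′ UTR, at 44439305 to 44440682 with a fold enrichment of 25.4 in OVA lung and at 44439305 to 44440176 with 22.4 in PBS lung. Its log10 p was -642 and -456. This peak was called on Prdm1 and assigned to the lincRNA Gm35028. The peak in exon 5 of 8 lay at 44440771 to 44446824 with 14.7 and at 44441162 to 44446794 with 16.8, with log10 p values of -406 and -274. Both large Prdm1 peaks were close in ratio.

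Toward the 5′ end, the Prdm1 peak in exon 2 of 8 was stronger in PBS lung. At 44456673 to 44457054 in OVA lung it had a fold enrichment of 2.27 and a log10 p of -24.4, and at 44456673 to 44457148 in PBS lung 3.23 and -43.6. It was one of the 4 pairs whose log10 p was further below 0 in PBS lung, beside those of Tbx21, the main Gata3 peak and the Bcl6 exon peak. The OVA list alone had 2 peaks near the 3′ end, at 44437326 to 44437387 with 1.48 and at 44437446 to 44437777 with 2.04, both called on Prdm1 and assigned to Gm35028. The PBS list alone had a peak of 62 bp in the 5′ UTR at 44458613 to 44458674 with 3.04.

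Irf4, induced by antigen receptor signals and needed for Th2, Th17 and plasma cell differentiation, had 1 peak in each list, on chromosome 13. It had 3 blocks and was labelled 3′ UTR. The peak ran from 30757497 to 30764316 with a fold enrichment of 30.4 and a log10 p of -2020 in OVA lung, and from 30757497 to 30764286 with 37.7 and -171 in PBS lung. These were the highest fold enrichments among the member peaks of each list, at percentile 97.6 of the OVA list and 99 of the PBS list. The ratio was thus lower in OVA lung, while the log10 p was 11.8 times as far below 0, the widest gap of the 23 pairs.

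Genes linked to these factors were counted by the same rule, as sets of family members, partners, other T helper factors and targets. Over all 17415 genes with a peak, 10.2% had peaks in OVA lung only and 6.87% in PBS lung only. The value given for a gene is the highest among its peaks in a list, and among the genes with values below, for Gata6, Il7r, Foxj1, Cd3e and Csf1r it belonged to peaks at different places in OVA and PBS lung, so their 2 values are not a pair. Genes of a set were ranked by the higher of their 2 values, so the order can differ within 1 list. Of 29 related genes, all from the same families except Runx1t1, 25 had a peak in both lists and 4 in neither (Gata1, Bcl6b, Irf1 and Irf7). The highest fold enrichments were on Foxp2, with 52.9 in OVA lung and 18.5 in PBS lung, and on Gata6, with 43.6 and 11. Of 27 partners and cofactors, 25 had a peak in both lists and 2 in neither (Hdac7 and Ezh2). Jun, which binds DNA with BATF and IRF4, had 97.4 and 63.3. Of 30 other factors of T cell fate, 27 had a peak in both lists and 3 in neither (Stat3, Stat5b and Myb). Nfil3 had 20.2 in OVA lung and 60.2 in PBS lung, on a peak called on Ror2, and Gfi1 had 18.5 and 41.5. In these 3 gene sets, every gene had peaks in both peak lists or in neither.

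Of 35 genes that these factors control, 20 had a peak in both lists, 3 in OVA lung only, none in PBS lung only and 12 in neither. The 12 included the cytokine genes Il4, Il5, Il10, Il2, Il21, Ifng, Il17a and Il17f. By the higher of the 2 values, the receptor genes Il7r, with 54.9 in OVA lung and 24.3 in PBS lung, and Il2ra, with 36.4 and 53.8, came first. Both Il7r values came from peaks assigned to Il7r but called on Spef2, so its place rests on the assignment. The genes with OVA peaks alone were Lag3 with 5.31, Tigit with 4.62 and Ctla4 with at most 1.91 over 3 peaks, beside 10.2% of all genes with a peak. These encode inhibitory receptors, as do Pdcd1, with 16.7 and 12.8, and Havcr2, with 16.6 and 15.5, which had peaks in both lists. Il13, made by Th2 cells, had a peak in both lists, with 7.04 and 8.32, but called on Rad50.

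Markers of lung cell types were counted to check the tissue. Of 6 alveolar epithelial markers 5 had peaks in both lists, with the highest fold enrichments on Ager (9.24 in OVA lung and 4.59 in PBS lung, called on Pbx2) and Abca3 (6.9 and 6.07), and Sftpc had none. Of 3 airway markers 2 had peaks in both, Foxj1 (15.8, called on Rnf157, and 17.3 at another place) and Scgb1a1 (2.9 and 2.2), and Epcam had none. All 4 endothelial markers had peaks in both, led by Cldn5 (21.8 and 10.8) and Kdr (15.6 and 14.2).

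T cell markers were counted in the same way. Of 7 markers, 5 had a peak in both lists and 2, Cd3g with 3.67 and Cd8a with 2.82, in OVA lung only, with 13 peaks in OVA lung and 8 in PBS lung. Of the 13 OVA peaks, 6 had no PBS counterpart, while each of the 8 PBS peaks had an OVA counterpart. Over all peaks, 19.4% of OVA and 14.5% of PBS peaks had no counterpart, and 10.2% of genes had peaks in OVA lung only. The highest values were higher in OVA lung on Cd28, with 26.2 and 13.5, and Cd5, with 15.9 and 7.25. They were higher in PBS lung on Cd3e, with 5.9 and 10.4 at different places, Cd3d, with 5.39 and 10.9, and Cd4, with 3.38 and 4.56. The Cd3d peaks, at 44986297 to 44986685 in OVA lung and at 44986654 to 44986715 in PBS lung, overlap at one end only. The members had 27 peaks in each list. The part of T cell number in the lower p values of the member peaks in OVA lung was not tested.

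Other immune markers were counted likewise. Among B and plasma cell markers, Cd79b (16 and 30.1, called on Scn4a) and Ms4a1 (3.34 and 3.01) had peaks in both lists, Jchain (1.77) in OVA lung only, and Cd79a in neither. Of 5 macrophage and dendritic cell markers 4 had peaks in both lists, among them Flt3 (34.9 and 7.03) and Csf1r, and Adgre1 had none. The Csf1r value of 42.1 in OVA lung came from a peak called on Pdgfrb, and that of 19.9 in PBS lung from a peak elsewhere, called on Csf1r. Of 4 eosinophil and mast cell markers, Ccr3 (13 and 6.17) had a peak in both lists, Kit (1.45) in OVA lung only, and Siglecf and Cpa3 in neither.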

How the data were processed

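The authors trimmed reads with FASTP and aligned them by HISAT2 to Ensembl release 101 (GRCm38). Peaks of IP over input were called by exomePeak, annotation was by ChIPseeker, and each group has 1 deposited list. How the 3 replicates were combined is not given in the sources used here. The deposited fold enrichment is a ratio of IP over input. The deposited scores are log10-transformed p values and FDRs. Other deposited columns hold positions and lengths in bp, and no strand of the peak.

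Peaks were compared by exonic blocks with an overlap of at least 1 bp. The counterpart of a peak was an overlapping peak called on the same gene where there was one, and among several the one with the largest overlap relative to the bases covered by either. This choice and the comparison of p values were made after values had been seen. Members and lists were chosen with earlier results of these data known. Every member is named, and from each other gene list the 2 genes with the highest fold enrichment and up to 2 with peaks in 1 list only. Some genes that this rule or the marker lists hold are not reported here. Other genes named were chosen after their values were seen. Promoter sequences are from RefSeq (GRCm38.p6). Motifs within peaks were not analysed here. No test was run. Python 3.11.15, numpy 2.4.6 and pandas 2.3.3 were used, and the overlap code was tested on simulated data.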

Additional observations from a re-analysis of the deposited data

How the results depend on the processing

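The values rest on 1 list per group, with no read numbers per peak, so no difference has a replicate check and the precision of a fold enrichment is unknown. No paired analysis was possible because each group has 1 list without values of single replicates, and no replicate was left out for the same reason.

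With peaks tied by assigned gene name only, there were 19 OVA and 21 PBS member peaks in place of 27 in each list. Of these, 2 OVA peaks had no PBS counterpart in place of 4, and 5 PBS peaks had no OVA counterpart, as in the main count. The median fold enrichment of the PBS member peaks was then 6.91. With called gene only, the OVA median was 5.5. A fold enrichment of at least 2 left 2 unmatched OVA peaks and an OVA median of 5.73, and an FDR under 0.05 gave a PBS median of 7.42. Identical ends left 25 peaks without a counterpart in each list. With an overlap of 50% of both peaks, 0 pairs were at least 2-fold higher in the OVA list. With the 1 bp overlap and 1.5-fold in place of 2-fold, 3 member pairs were higher in OVA lung, beside 18.3% of all pairs, and 1 in PBS lung, beside 12.3%. Taking the largest overlap in bp as the counterpart, an alternative chosen after seeing the data, gave 1 pair at least 2-fold higher in the PBS list, the peak called on Gm15655 set against one called on Maf. Peaks of 1 list that overlap each other, counted once, came to 23 for OVA and 25 for PBS, also chosen after seeing the data. Under the 4 alternatives that change which peaks are counted by gene rule, FDR or fold enrichment, the median of member peaks was higher in the PBS list, and 8 genes had a peak in each list.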
